A study of Rattus norvegicus with 26 samples.

Results

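The fibrinogen locus on rat chromosome 2 was followed as 3 abundant annotated genes that lie side by side. They were chosen by their raw counts summed over all 26 libraries, as the 3 highest of the 4 annotated genes that lie wholly between positions 181900000 and 182100000. The files list 32552 annotated genes in all, and the summed counts that made the choice are given below only as a description. RNA was sequenced from rat hepatocytes before transplantation and from liver tissue after it. Before transplantation there were 4 libraries of adult hepatocytes and 3 sets of 4 libraries of immunopurified fetal hepatocytes, labelled LAP+, LAP+/OC2+ and LAP+/OC2-. After transplantation of fetal cells into adult liver, laser capture gave 5 libraries of fetal-derived colony tissue and 5 of the host liver around the colonies, with 1 library of each kind for each of the replicate numbers 242, 243, 246, 248 and 249. Each number is taken here as 1 animal, which the labels do not say in words. What is compared is fetal with adult hepatocytes before transplantation, and colony with host afterwards. The labels do not spell out the sorting markers, and they give the stage as fetal or adult without an age, strain or sex. They do not say how the hosts were prepared or how the captured regions were chosen, so the share of donor cells in a colony library is not known.

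Fibrinogen is the plasma glycoprotein that thrombin cleaves into the fibrin of a blood clot. Hepatocytes assemble it from equal numbers of Aα, Bβ and γ chains, which the genes Fga, Fgb and Fgg encode, and secrete it into the blood. It is an acute-phase protein: interleukin-6 raises transcription of all the chain genes through STAT3, with C/EBP and HNF1 factors acting at some of their promoters. Because a complete molecule needs every chain, the balance between the genes is of interest beside their level.

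The deposited files pair no identifier with a gene symbol, and the RefSeq table used here matched none of the 3, so a chain is not assigned to a single gene. They are called the left, middle and right gene by position, and "row" in the plots means such a gene. In RefSeq's assembly GRCr8, which is another annotation than that of the files, Fgg, Fga and Fgb are neighbours on chromosome 2 in this order, on the plus, plus and minus strands. The 3 deposited genes lie in the same plus, plus, minus arrangement. This is the check of the name that the files allow, and it rests on the strand arrangement alone. Chromosome, position and abundance were fixed by the rule. The order of the chains could not be checked, since no gene was matched to a chain. The other lists of liver and cell type marker genes prepared by symbol could not be used, because 0 of 32552 identifiers matched, so the labelled cell types were not checked against their markers.

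The RefSeq promoters of Fgg, Fga and Fgb are shown as background and were searched for response elements known for fibrinogen. The bearing of these promoters on the levels below was not tested. Each is the 250 bases before the start in GRCr8, 5′ to 3′ on the strand of the gene, at chr2:170652833-170653082 (plus) for Fgg, chr2:170671919-170672168 (plus) for Fga and chr2:170700876-170701125 (minus) for Fgb. For Fga 2 starts were listed, and only the window of the more upstream start is shown and described. Capitals mark CTGGGAA, the core of the interleukin-6 response element, and ATTAAC, which is the HNF1 half-site GTTAAT on the other strand.
Fgg: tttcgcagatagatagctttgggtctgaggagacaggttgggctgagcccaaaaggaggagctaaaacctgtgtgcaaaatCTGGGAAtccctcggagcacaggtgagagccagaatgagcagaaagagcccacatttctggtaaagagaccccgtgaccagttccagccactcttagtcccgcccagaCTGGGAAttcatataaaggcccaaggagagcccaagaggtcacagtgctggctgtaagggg
Fga: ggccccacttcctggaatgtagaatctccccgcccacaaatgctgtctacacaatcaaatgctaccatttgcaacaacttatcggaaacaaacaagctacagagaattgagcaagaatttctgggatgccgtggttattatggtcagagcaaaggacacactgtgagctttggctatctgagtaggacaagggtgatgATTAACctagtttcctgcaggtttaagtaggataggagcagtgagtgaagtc
Fgb: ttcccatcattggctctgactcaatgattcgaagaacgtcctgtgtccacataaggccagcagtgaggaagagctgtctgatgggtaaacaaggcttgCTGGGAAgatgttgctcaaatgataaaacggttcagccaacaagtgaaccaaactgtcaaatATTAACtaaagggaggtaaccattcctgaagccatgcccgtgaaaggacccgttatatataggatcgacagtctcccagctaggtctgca
CTGGGAA was found 2 times in the Fgg promoter, at bases 169 to 163 and 61 to 55 before the start. It was found 1 time in that of Fgb, at bases 152 to 146, and not in this window of Fga. The HNF1 half-site was found 1 time in Fga, at bases 52 to 47, and 1 time in Fgb, at bases 90 to 85. The C/EBP core TTGCNNAA was found 1 time in Fga, at bases 144 to 137, and 1 time in Fgb, at bases 141 to 134. A TATAAA box was found only in Fgg, at bases 50 to 45. Both strands were searched, and no match overlapped another. Among 33469 RefSeq promoter windows of this length, 9.56% held CTGGGAA, 6.45% GTTAAT, 9.22% TTGCNNAA and 12.9% TATAAA. A match describes the letters and is not a measured binding site.

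The left gene, ENSRNOG00000025074, spans positions 181987217 to 181994514 on the plus strand, with 1544 nt of exon in 10 exon blocks. The middle gene, ENSRNOG00000024848, spans 182006242 to 182013763 on the plus strand, with 2725 nt of exon in 6 blocks. The right gene, ENSRNOG00000007092, spans 182027115 to 182038178 on the minus strand, with 2895 nt in 10 blocks. These are positions on chromosome 2 as deposited; no source used here gives the genome build. Gaps of 11727 and 13351 nt separate the 3 genes.

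Summed over the 26 libraries, the left gene had 2148250 reads, the middle gene 2776260 and the right gene 2587956. The fourth gene of the window, ENSRNOG00000006655, had 10737 reads and lay just outside the rule. It starts 2139 nt after the right gene ends, on the plus strand, at 182040318 to 182056673. In adult hepatocytes the 3 genes stood at places 15 to 24 among all nuclear genes by read number, so all were highly abundant there, as the rule required. The places were 6 to 10 in LAP+ libraries, 7 to 12 in LAP+/OC2-, 39 to 250 in LAP+/OC2+, 8 to 30 in host and 7 to 32 in colony. All 3 passed the low-count filter in every comparison.

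Totals per library ranged from 7871347 to 16874438 counts. Sorted cells were made into libraries with the NEBNext Ultra kit and captured tissue with the SMARTer Stranded Pico kit, so kit, material and stage change together and no level was compared across the stages. The LAP+/OC2+ libraries stood apart: 62.2% ± 17.9 (SD, n = 4) of their counts were mitochondrial, against 4.94% to 7.73% on average in the other groups before transplantation. Their nuclear counts were 1917734 to 5045098. Levels are given as CPM, counts scaled to a common library size, after TMM scaling, which sets each library's effective size from the bulk of the genes. Adjusted p-values are Benjamini-Hochberg values of edgeR's quasi-likelihood test over all genes tested. They measure the spread between these libraries, and in bulk RNA fewer cells of a type and less RNA per cell cannot be told apart.

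Before transplantation the locus was higher in LAP+ and LAP+/OC2- fetal hepatocytes than in adult hepatocytes, by about the same factor for each gene, and far lower in LAP+/OC2+ cells than in any other group. In adult libraries 1 to 4, the left gene ENSRNOG00000025074 was at 4894, 4108, 5317 and 5333 CPM. It was at 9667, 6049, 9722 and 9219 CPM in LAP+ libraries 1 to 4, and at 5628, 9088, 10183 and 9596 CPM in LAP+/OC2- libraries 1, 3, 4 and 5. In LAP+/OC2+ libraries 1 to 4 it was at 959, 777, 449 and 296 CPM. Every LAP+ and LAP+/OC2- library lay above every adult library, with LAP+ library 2 and LAP+/OC2- library 1 well below the others of their groups, and all LAP+/OC2+ libraries lay below all the rest.

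The middle gene ENSRNOG00000024848 was at 5486, 4550.0, 5959 and 6633 CPM in the adult libraries. It was at 10517, 6654, 10943 and 10457 CPM in LAP+ and at 6147, 10151, 11468 and 10896 CPM in LAP+/OC2-. In LAP+/OC2+ it was at 859, 688, 484 and 317 CPM. The same LAP+/OC2- library 1 was the low one, here below the highest adult library, so LAP+/OC2- and adult overlapped for this gene. LAP+ and adult did not, though LAP+ library 2 stood only just above adult library 4.

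The right gene ENSRNOG00000007092 was at 5763, 4858, 6089 and 5942 CPM in the adult libraries. It was at 10013, 5964, 10932 and 9862 CPM in LAP+ and at 5650.1, 9437, 10820.2 and 10340.4 CPM in LAP+/OC2-. In LAP+/OC2+ it was at 944, 793, 514 and 317 CPM. Both fetal groups overlapped the adult range for this gene, through the same low libraries, while LAP+/OC2+ stayed below all others.

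**Figure D1:**
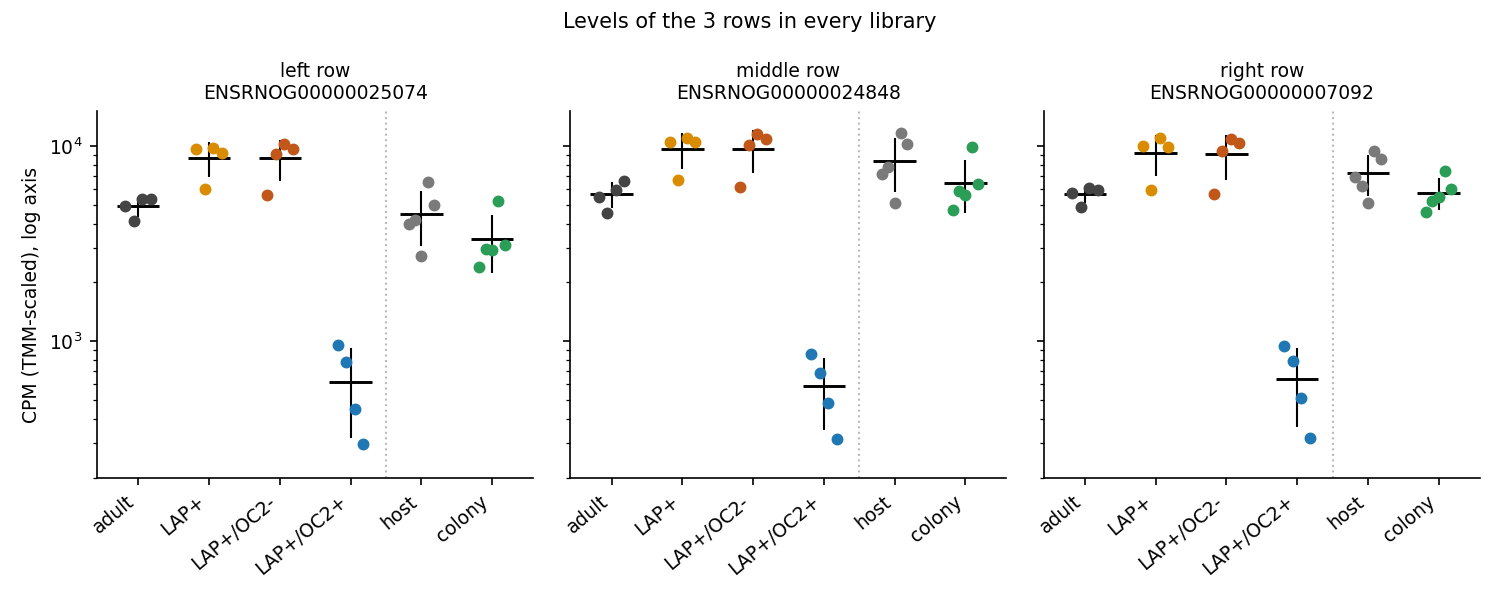
Level of each gene in every library, in CPM after TMM scaling on a log axis, by group; bars show the group mean and lines the SD, and the dotted line parts the stages, whose levels are not comparable. The 4 LAP+/OC2+ libraries lie between 296 and 959 CPM in all panels, below the other groups, and 1 library in LAP+ and 1 in LAP+/OC2- sits below the rest of its group.

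The left gene averaged 8664 ± 1758 CPM in LAP+ (SD, n = 4) and 4913 ± 574 CPM in adult cells (SD, n = 4), a ratio of 1.76. Its log2 difference was 0.82 ± 0.31 (SE), with an edgeR adjusted p of 0.031. The middle gene differed by 0.77 ± 0.29 (adjusted p 0.030, edgeR), and the right gene by 0.70 ± 0.31 (adjusted p 0.057, edgeR). So 2 of the 3 genes passed the adjusted p of 0.05 as higher in LAP+, where 31.7% of all 13818 tested genes were called higher. LAP+/OC2- against adult gave nearly the same values, 0.81 ± 0.31, 0.77 ± 0.29 and 0.68 ± 0.30 for the left, middle and right gene. Again the left and middle gene passed, with edgeR adjusted p of 0.033 and 0.030, and the right gene did not, at 0.065; 30.9% of all genes were called higher. Both comparisons share the adult libraries.

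These calls were close to the threshold. Leaving out 1 of 6 libraries (adult 1, 2 or 3, or LAP+ 1, 3 or 4) took the left and the middle gene out of the LAP+ calls, with log2 differences of 0.73 to 0.85 and 0.67 to 0.78 and edgeR adjusted p of up to 0.087. For LAP+/OC2- the left gene lost its call without any 1 of adult 1 to 4 or LAP+/OC2- 3, 4 or 5, and the middle gene without any 1 of adult 1 to 3 or LAP+/OC2- 3, 4 or 5, with log2 differences of 0.72 to 0.85 and 0.66 to 0.78. The right gene gained a call without LAP+ library 2 (0.86, edgeR adjusted p 0.027) and without LAP+/OC2- library 1 (0.85, adjusted p 0.028, edgeR), and in both comparisons without LAP+/OC2+ library 4 (0.70 and 0.68, edgeR adjusted p 0.019 and 0.023). It also gained the LAP+ call without LAP+/OC2+ library 1 (0.69, adjusted p 0.044, edgeR) and without LAP+/OC2- library 1 (0.70, adjusted p 0.046, edgeR). With the replicate number as a block, which the labels do not tie to a shared animal, none of the 3 passed in either comparison.

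LAP+/OC2- and LAP+ were close to each other. The log2 differences were -0.01, 0.00 and -0.02 for the left, middle and right gene, with SE of 0.29 to 0.31 and edgeR adjusted p of 1. None of the 3 was called, and 0.391% of all genes were. With this spread a missed threshold does not show that the sorts hold the same level.

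LAP+/OC2+ cells held 13.9-fold less of the left gene, 16.5-fold less of the middle gene and 14.1-fold less of the right gene than LAP+/OC2- cells, by mean CPM. The log2 differences were -3.80 ± 0.34, -4.04 ± 0.33 and -3.82 ± 0.34 (SE), with edgeR adjusted p of 6.3e-08, 1.7e-08 and 5.0e-08. All 3 fell, where 36.6% of all tested genes were called lower. Only 1.13%, 0.688% and 1.09% of the tested genes had a difference as low as or lower than that of the left, middle and right gene. Against LAP+, the differences were -3.80, -4.04 and -3.84, and all 3 were called with 35.9% of all genes called lower. Against adult cells the log2 differences were -2.99 ± 0.33, -3.27 ± 0.31 and -3.14 ± 0.33, with edgeR adjusted p of 3.2e-07, 5.3e-08 and 1.6e-07 and 38.6% of all genes called lower. The 9 falls kept their call in every alternative, including each library left out in turn. The mitochondrial share of the libraries moved with this difference, and its part in the result was not tested beyond removing mitochondrial genes before scaling, which kept every call.

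The average over the fetal sorts mixed these opposite directions. The mean of the 3 fetal groups lay below adult by 0.45 for the left gene (log2 difference -0.45, edgeR adjusted p 0.11), and the log2 differences of the middle and right gene were -0.58 and -0.59 (adjusted p 0.031 and 0.036, edgeR). Thus 2 of 3 were called lower against 35.3% of all genes, although LAP+ and LAP+/OC2- both lay above adult. Leaving out adult library 3 or 4 took away both calls, and leaving out adult library 1 that of the right gene.

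As a share of all nuclear counts, the 3 genes together gave 1.65%, 1.38%, 1.81% and 1.82% in the adult libraries. They gave 3.98%, 2.83%, 4.08% and 4.09% in LAP+, and 2.55%, 3.94%, 3.95% and 3.88% in LAP+/OC2-. In LAP+/OC2+ libraries 1 to 4 they gave 0.558%, 0.408%, 0.266% and 0.160%. The 4 groups stood apart except LAP+ and LAP+/OC2-, which overlapped.

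The mean shares were 1.67% ± 0.20 for adult cells and 3.75% ± 0.61, 3.58% ± 0.69 and 0.348% ± 0.173 for LAP+, LAP+/OC2- and LAP+/OC2+ (SD, n = 4 each). LAP+ thus held 2.25 times and LAP+/OC2- 2.15 times the adult share, while the adult share was 4.78 times that of LAP+/OC2+. LAP+ and LAP+/OC2- held 10.8 and 10.3 times the share of LAP+/OC2+. The 5 differences that set groups apart each had an exact two-sided permutation p of 0.0286, the smallest that 4 against 4 allows, and 0.040 after Benjamini-Hochberg adjustment over 7 comparisons. LAP+/OC2- and LAP+ gave a permutation p of 0.457.

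The size of the LAP+/OC2+ difference depended on the denominator. Taken over all counts, mitochondrial ones included, the 3 genes made up 0.109% ± 0.009 in LAP+/OC2+ (SD, n = 4), with 0.119%, 0.107%, 0.113% and 0.0979% in libraries 1 to 4. That is 14.1-fold below adult and 31.1-fold below LAP+/OC2-. The share of all counts was thus even across the LAP+/OC2+ libraries, while the share of nuclear counts was more than 3 times higher in library 1 than in library 4. Mitochondrial counts ranged from 38.9% to 78.6% in these libraries.

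The most abundant nuclear gene of adult hepatocytes served as a second yardstick. It is ENSRNOG00000002911, at positions 19176277 to 19191863 of chromosome 14, minus strand, with 11.7% of nuclear counts in adult cells and 10.9%, 10.5% and 1.02% in the LAP+, LAP+/OC2- and LAP+/OC2+ sorts. The 3 genes together had 0.136, 0.108, 0.170 and 0.160 reads per read of it in the adult libraries. In LAP+ the ratio was 0.318, 0.283, 0.400 and 0.370, in LAP+/OC2- 0.279, 0.3603, 0.367 and 0.353, and in LAP+/OC2+ 0.343, 0.319, 0.341 and 0.391. All fetal libraries lay above all adult ones, and the 3 fetal groups overlapped. The yardstick was chosen for its abundance in these same adult libraries, which by itself favours a low adult ratio. How far this choice shapes the comparisons with adult was not tested.

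Relative to that gene, then, the LAP+/OC2+ libraries lay among those of the other fetal cells. The mean ratio was 0.144 ± 0.027 in adult (SD, n = 4) and 0.343 ± 0.052, 0.340 ± 0.041 and 0.348 ± 0.030 in LAP+, LAP+/OC2- and LAP+/OC2+ (SD, n = 4 each). The log2 differences from adult were 1.26, 1.26 and 1.296, each with an exact permutation p of 0.0286 and an adjusted p of 0.067 over 7 comparisons. None of the 3 passed an adjusted p of 0.05, and these p-values make no allowance for how the yardstick was chosen. As 0.0286 is the smallest p that 4 against 4 allows, 3 comparisons at that floor cannot pass among 7, whatever their size. Between LAP+/OC2+ and LAP+/OC2- the log2 difference was 0.04 ± 0.11 (SE), with an exact permutation p of 0.743.

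**Figure D2:**
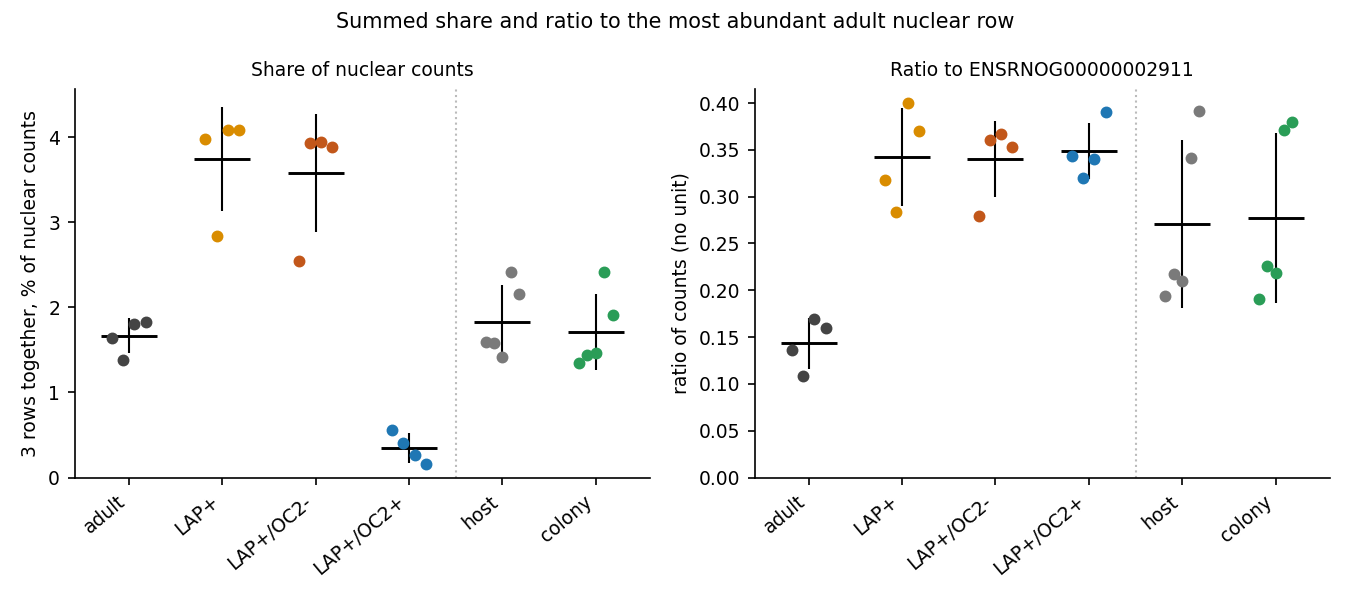
Left panel, the 3 genes together as a percent of nuclear counts; right panel, their counts divided by those of the most abundant adult nuclear gene; each point is a library, bars and lines are group mean and SD. LAP+/OC2+ has the lowest share, 0.160% to 0.558%, and yet its ratio of 0.319 to 0.391 lies among those of the other fetal groups.

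The most abundant nuclear gene of LAP+/OC2+ is given as context, and a high share in that group follows from this choice. It is ENSRNOG00000029886, at 15602794 to 15603649 on chromosome 10, and took 0.0240% of nuclear counts in adult cells. Its share was 1.11% in the LAP+ sort, 2.57% in LAP+/OC2- and 4.83% ± 1.93 in LAP+/OC2+ (SD, n = 4). Its part in the lower share of the locus was not tested.

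Balance between the genes was compared as counts per nt of exon within a library. In adult cells the left gene was the highest per length, with 5734 ± 612 TPM (a measure scaled for length and depth; SD, n = 4), against 3742 ± 564 TPM for the middle and 3525 ± 300 TPM for the right gene. The left gene lay above the other two in every adult library, while the ratio of right to middle lay on both sides of 1, from 0.843 to 1.005. The ratio of left to middle per length was 1.57, 1.59, 1.57 and 1.42 in the adult libraries, with a mean of 1.54 ± 0.08 (SD, n = 4). It averaged 1.59 ± 0.03 in LAP+ and 1.58 ± 0.03 in LAP+/OC2- (SD, n = 4 each). Both sorts overlapped the adult libraries in this ratio, although their levels of the left and middle gene were higher.

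In LAP+/OC2+ the left-to-middle ratio was 1.97, 1.99, 1.64 and 1.65, above every library of the other groups before transplantation. The mean of 1.81 ± 0.20 (SD, n = 4) gave log2 differences of 0.23, 0.19 and 0.19 from adult, LAP+/OC2- and LAP+. Each had an exact permutation p of 0.0286 and an adjusted p of 0.10 over 21 comparisons of ratios. Right to middle averaged 1.02 ± 0.06 in LAP+/OC2+, 0.880 ± 0.013 in LAP+/OC2-, 0.892 ± 0.040 in LAP+ and 0.950 ± 0.073 in adult (SD, n = 4 each). LAP+/OC2+ did not overlap LAP+/OC2- or LAP+, with an exact permutation p of 0.0286 and an adjusted p of 0.10 in both. Of the 21 comparisons of ratios 0 passed an adjusted p of 0.05. Since 0.0286 is the smallest p that 4 against 4 allows, a few comparisons at that floor cannot pass among 21, whatever their size. The LAP+/OC2+ ratios rest on 8087 to 10702 reads for the locus per library.

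**Figure D3:**
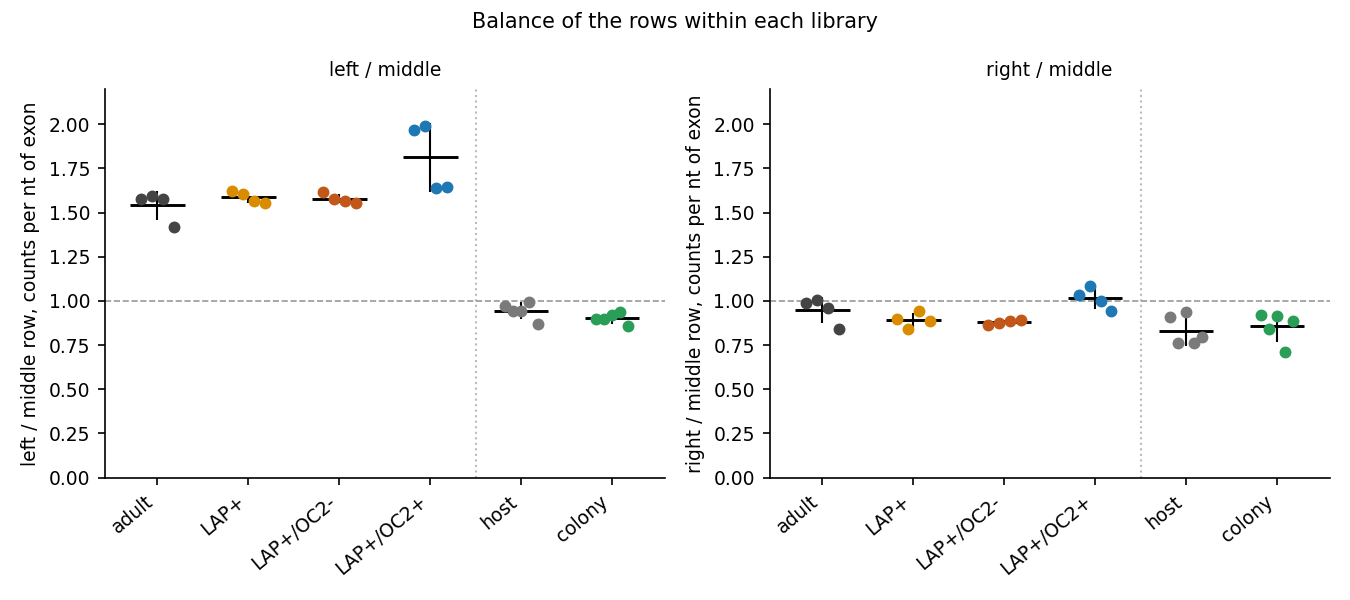
Ratio of left to middle and of right to middle gene, in counts per nt of exon, by library and group, with group mean and SD; the dashed line marks equal counts per nt. Left to middle runs from 1.42 to 1.62 in adult, LAP+ and LAP+/OC2- libraries and from 1.64 to 1.99 in LAP+/OC2+, and lies below 1 in all host and colony libraries, which were made with another kit.

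After transplantation, fetal-derived colonies held somewhat less of the locus than host liver by CPM in 4 of 5 animals. With the animal as a block, edgeR called none of the 3 genes. In host tissue of animals 242, 243, 246, 248 and 249, the left gene ENSRNOG00000025074 was at 3972, 4153, 2730.45, 6548 and 5002 CPM. In colony tissue of the same animals it was at 2398, 2977, 2935, 5211 and 3094 CPM. Colony was thus at 60.4%, 71.7%, 108%, 79.6% and 61.9% of host. Animal 246 went the other way and had the lowest host level, and the host and colony ranges overlapped.

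The middle gene ENSRNOG00000024848 was at 7197, 7758, 5117, 11612 and 10177 CPM in host and at 4718, 5852, 5623, 9834 and 6371 CPM in colony. Colony was at 65.6%, 75.4%, 109.9%, 84.7% and 62.6% of host for it. For the right gene ENSRNOG00000007092, host was at 6965, 6256, 5089, 9398 and 8579 CPM and colony at 4599, 5241, 5471, 7441 and 6014 CPM. Its colony level was 66.03%, 83.8%, 107.5%, 79.2% and 70.1% of host. By CPM, all 3 genes had the same order of direction by animal, lower in 242, 243, 248 and 249 and higher in 246. The direction depended on the scale. By TPM, colony of animal 248 lay above its host for all 3 genes, at 7908 against 6913, 8456 against 6946 and 6022 against 5292. The right gene of animal 249 was also slightly higher in colony by TPM, at 5479 against 5450. By CPM, animal 248 had the highest level of each gene in both tissues. For the left gene the host libraries ran from 2730.45 to 6548 CPM, while the group means were 4481 and 3323 CPM.

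The log2 differences of colony from host, with the animal as a block, were -0.43 ± 0.14, -0.36 ± 0.14 and -0.32 ± 0.14 (SE) for the left, middle and right gene. Their edgeR adjusted p were 0.10, 0.17 and 0.21, so 0 of 3 were called. Without the block, host and colony taken as unpaired, they were -0.43 ± 0.22, -0.37 ± 0.21 and -0.34 ± 0.17 (SE), with edgeR adjusted p of 0.34, 0.38 and 0.34. Of all 22303 genes tested with the block 1.17% were called, and the median log2 difference over all of them was 0.11. At an unadjusted p under 0.05, edgeR counted all 3 genes, with p of 0.0043, 0.016 and 0.028, and 4235 genes in all. DESeq2 called the left gene (adjusted p 0.029), with 682 genes called in all. All 3 were called by limma-voom, which called 2078 genes in all. Without animal 246 edgeR called all 3 as lower in colony, with log2 differences of -0.56, -0.48 and -0.42. Their edgeR adjusted p were 0.00030, 0.0010 and 0.0028, and 2683 genes were called in all instead of 262. Leaving out any other animal gave no call, with edgeR adjusted p of up to 0.48, 0.54 and 0.57. Without animal 242 edgeR called 5 genes in all, and without animal 249 it called 0.

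**Figure D4:**
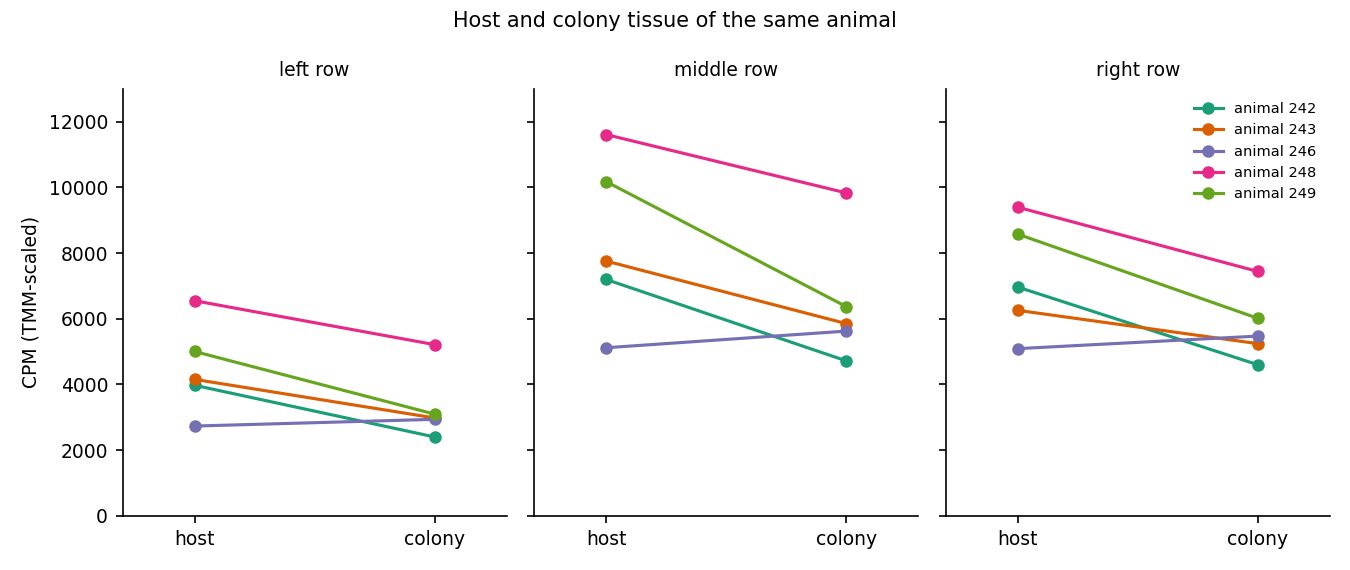
Level of each gene in host and colony tissue that share a replicate number, taken as 1 animal, in CPM after TMM scaling; each line joins the libraries of 1 animal. The lines of 242, 243, 248 and 249 fall and that of 246 rises in all 3 panels, and animal 248 is the highest in both tissues.

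As a share of nuclear counts, the 3 genes together gave 1.59%, 1.59%, 1.41%, 2.42% and 2.16% in host and 1.35%, 1.44%, 1.46%, 2.41% and 1.91% in colony of the same animals. The means were 1.83% ± 0.43 and 1.71% ± 0.45 (SD, n = 5), and the difference of -0.12 percentage points had an exact sign-flip permutation p of 0.188, adjusted 0.219 over 7. The smallest p that 5 animals allow is 0.0625. By share the colony mean was 93.5% of the host mean, against 74.2% to 79.3% by CPM. The chromosome 14 gene moved with the locus on the CPM scale, with colony at 65.6%, 74.7%, 104%, 74.9% and 67.3% of host in the same order of animals. The ratio of the locus to that gene was 0.271 ± 0.089 in host and 0.277 ± 0.091 in colony (SD, n = 5), a log2 difference of 0.03 ± 0.03 (SE, exact permutation p 0.375). The chromosome 14 gene was thus lower in colony by CPM in the same 4 animals.

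In host tissue the middle gene had 5739 ± 1125 TPM, the left gene 5414 ± 1060 TPM and the right gene 4721 ± 660 TPM (SD, n = 5). Within a library, left to middle per length was below 1 and left to right above 1 in all 5 host libraries, the latter from 1.01 to 1.31. Left to middle per length was 0.945 ± 0.048 in host and 0.902 ± 0.030 in colony (SD, n = 5). Colony was lower in 5 of 5 animals, by 0.07 on average on the log2 scale (difference -0.07 ± 0.02 SE), with an exact sign-flip permutation p of 0.0625, the smallest possible, and an adjusted p of 0.146 over 21. Right to middle per length was 0.832 ± 0.085 and 0.855 ± 0.086 in host and colony (SD, n = 5), with an exact permutation p of 0.438. The higher left-to-middle ratio of sorted cells and the lower one of captured tissue cannot be told apart from the change of library kit.

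The difference between fetal and adult cells before transplantation was then set against the difference between colony and host, in 1 fit of all 26 libraries. For LAP+ the difference of differences was 1.44 ± 0.34, 1.32 ± 0.33 and 1.21 ± 0.34 on the log2 scale (SE) for the left, middle and right gene. All 3 passed, with edgeR adjusted p of 0.0019, 0.0026 and 0.0069, where 17.1% of 23459 tested genes were called higher. For LAP+/OC2- it was 1.43, 1.32 and 1.19, with edgeR adjusted p of 0.0020, 0.0024 and 0.0078 and 17% of genes called higher. For LAP+/OC2+ it was -2.54, -2.89 and -2.80, with edgeR adjusted p of 4.8e-07, 2.2e-08 and 6.6e-08 and 19% called lower. The higher level of LAP+ and LAP+/OC2- cells over adult cells was thus not matched by colony over host, and the fall in LAP+/OC2+ was not matched either. The sample titles do not say which sort the colonies came from. Kit and material differ between the stages, and the donor share of a colony library is not known. The part of each in these differences was not tested. All 3 sorts share the adult, host and colony libraries. The split by sort was chosen after the values were seen. Without animal 248 the right gene lost its call against LAP+ and LAP+/OC2-, at 0.99 and 0.98 with edgeR adjusted p of 0.072 and 0.076.

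Taken over the mean of the 3 fetal sorts, the difference of differences was 0.11, -0.08 and -0.13 for the left, middle and right gene. With edgeR, 0 of 3 were called, at adjusted p of 1, 1 and 0.97, where 33.5% of genes were called in either direction. The sorts cancel in that mean, and the sign for the left gene changed with RLE scaling to -0.03.

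Genes next to the locus are given for comparison. ENSRNOG00000006655, the fourth gene of the window, rose in LAP+ (log2 difference 0.84 ± 0.19, edgeR adjusted p 0.0010) and in LAP+/OC2- (0.86, adjusted p 0.00087, edgeR). It was at 25.97 ± 1.27 CPM in adult and 46.6 ± 11.4 CPM in LAP+ (SD, n = 4 each). In LAP+/OC2+ it lay below adult on the CPM scale by far less than the locus, at -0.49 ± 0.20 (edgeR adjusted p 0.032). As a mean share of nuclear counts it lay above adult there, at 0.00344% against 0.00266%, with overlapping libraries. Its direction in LAP+/OC2+ thus depended on the denominator. The nearest gene on the other side to pass the filter, ENSRNOG00000025608 at 181896305 to 181905300 on the minus strand, was lower in LAP+ than in adult by value (-0.98, edgeR adjusted p 0.086), fell in LAP+/OC2- (-1.19, adjusted p 0.041, edgeR) and in LAP+/OC2+ (-2.58, adjusted p 0.00062, edgeR). ENSRNOG00000025608 had only 3 to 20 reads per library in LAP+/OC2+. Its LAP+/OC2- libraries, at 4.30 to 8.75 CPM, overlapped the adult ones at 6.92 to 18.98 CPM. The difference between neighbours and members in these comparisons was not tested. Within 500000 nt to each side lay 5 further annotated genes outside the window. Of them 2, ENSRNOG00000025608 with 4712 reads and ENSRNOG00000025823 with 614, were tested in every comparison. ENSRNOG00000025823 had 0 to 1 reads per library in LAP+/OC2+. ENSRNOG00000049213, with 141 reads, was tested only where captured tissue entered the fit, and its log2 difference of colony from host was 0.75 (edgeR adjusted p 0.58). The remaining 2 had 0 and 2 reads in all libraries together. No neighbour overlaps a member in the deposited coordinates. RefSeq lists a long non-coding RNA on the strand opposite to Fgb next to it, and whether the counting used strand is not stated, so reads of an antisense gene there could not be told apart.

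**Figure D5:**
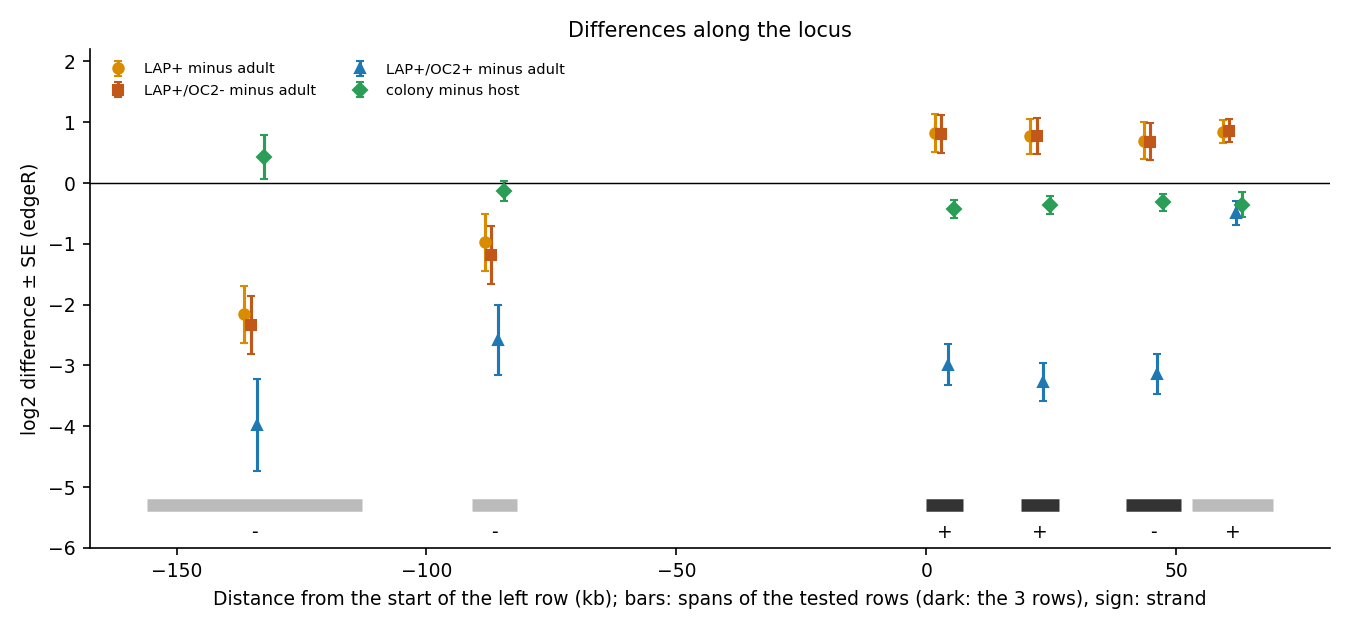
Log2 difference with its SE from edgeR for the tested genes of the region, by distance from the start of the left gene in kb; bars at the bottom are gene spans, dark for the 3 fibrinogen locus genes, with the strand sign. The 3 genes move together at 0.68 to 0.82 in LAP+ and LAP+/OC2- and at -2.99 to -3.27 in LAP+/OC2+ against adult. The genes to their left lie below adult by value in all 3 sorts, on at most 20 reads per library in LAP+/OC2+.

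Across libraries the 3 genes followed each other closely. Pearson's r of log2(CPM + 1) was 0.998 to 0.999 between any pair of them over the 16 libraries before transplantation, which share group differences and depth, and 0.966 to 0.990 over the 10 after it. Among 1205 nuclear genes of at least 100 CPM in adult cells, the pattern nearest to the mean of the 3 genes was that of ENSRNOG00000005686, at 127552101 to 127824970 on chromosome 4, with r of 0.996. The next was ENSRNOG00000001440, at 23941448 to 23954431 on chromosome 12, with r of 0.993. The chromosome 14 gene came at place 104, with r of 0.951. Over the 10 libraries after transplantation, where 1412 genes were ranked, ENSRNOG00000018899 at 14049995 to 14229080 on chromosome 3 came first with r of 0.987. ENSRNOG00000017381 at 6970342 to 6985579 on chromosome 16 followed with r of 0.979, and the chromosome 14 gene stood at place 561 with r of 0.339. None of the nearest genes was the same in both stages.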

How the data were processed

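RNA was measured in 26 libraries, of which 16 were made before and 10 after transplantation. The deposited values are raw counts per annotated gene, with exon coordinates, per the file headers. The submitters' processing notes name STAR 2.5.2b, featureCounts (Subread 1.5.2), Trimmomatic 0.36 and bcl2fastq 2.17 as the authors' tools. Build, annotation and whether counting used strand: "not given in the sources used here". Totals were 7871347 to 16874438 counts per library, which puts 3 counts, the limit that a count of 0 allows, far below any level of the 3 genes.

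Counts were tested with edgeR 4.0.16 in R 4.3.3 (TMM scaling, the filterByExpr low-count filter, a robust quasi-likelihood fit), with Benjamini-Hochberg adjustment over all genes tested. The 16 libraries before transplantation entered 1 fit without a block. Colony and host were fitted on 10 libraries with the animal as a block, and the difference of differences on all 26. Host and colony share replicate numbers per the labels, taken as animals, which no label states. Deviations from group means correlated at -0.25 to 0.50 within these numbers (over 0.1 in 3 of 5), so the data do not settle the pairing, and values without the block are given beside those with it. Replicates are called biological in the labels, and all 44 replicate pairs differed by more than counting noise (chi-square over degrees of freedom 5.21 to 289.9).

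Shares, ratios and TPM were computed from the deposited counts with numpy 2.4.6 and pandas 2.3.3. Ratios and shares were compared with exact permutation tests (scipy 1.17.1), adjusted within 21 ratio, 7 share and 7 reference comparisons. Promoters are RefSeq's, build GRCr8. The edgeR script was tested on simulated data for LAP+ against adult, LAP+/OC2+ against LAP+/OC2-, and colony against host. The difference of differences over the fetal mean was simulated too, without a limit set on its error. Those by sort were not simulated. Alternatives were DESeq2 1.42.0, limma-voom (limma 3.58.1), RLE scaling, looser and stricter filters, removal of mitochondrial genes, fits with and without blocks, and each library or animal left out.

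The members and gene lists were chosen with earlier results of these data known. Named are the 3 genes of the rule, the fourth of the window, the nearest tested neighbours, and the 2 genes per stage whose log2(CPM + 1) correlated best with the mean of the 3 among genes of at least 100 CPM. The chromosome 10 and chromosome 14 genes are the most abundant nuclear genes of LAP+/OC2+ and adult cells.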

Additional observations from a re-analysis of the deposited data

Results flagged for a closer look

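In a group of 4 to 10 libraries, a highest or lowest library was noted when its gap to the next was large against the range of the group. Chance notes about 1 group in 20, and 48 groups were checked. LAP+ library 2 was low for the left gene ENSRNOG00000025074 (6049 CPM), for the middle gene ENSRNOG00000024848 (6654 CPM) and for the share of the 3 genes (2.83% of nuclear counts). LAP+/OC2- library 1 was low for that share (2.55%) and for the log2 ratio of the locus to the chromosome 14 gene (-1.84). Adult library 4 was low for the log2 ratio of left to middle counts (-0.31). The colony of animal 248 was high for the left gene (5211 CPM), and its host tissue was the highest host library as well.

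The fetal-adult difference before transplantation differed from the colony-host difference after it for all 3 genes in each sort, by edgeR's test of the difference itself. On the log2 scale these were 1.44, 1.32 and 1.21 for LAP+ (left, middle and right gene), 1.43, 1.32 and 1.19 for LAP+/OC2-, and -2.54, -2.89 and -2.80 for LAP+/OC2+.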

How the results depend on the processing

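The 9 falls in LAP+/OC2+ kept direction and call under each alternative run, and so did the differences of differences by sort, except for the right gene without animal 248. The size was less steady: for the right gene in LAP+ that difference was 1.21 in the main fit, 0.99 with RLE scaling and 1.26 with limma-voom. In all, 1145 values of 71 results were computed, the alternatives of the difference of differences by sort being chosen after seeing the data. At 2572 or more counts per gene and library, a count of 0 did not arise for the 3 genes.

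Values are log2 differences for the left, middle or right gene, the cause of each change was not tested, and "called" means an edgeR adjusted p under 0.05 unless another tool is named. With the replicate number as a block before transplantation, calls were lost for LAP+ against adult (left 0.81, middle 0.76), LAP+/OC2- against adult (left 0.74, middle 0.67) and the fetal mean (middle -0.61, right -0.62). Same-numbered libraries there correlated at -0.52 to 0.22 (over 0.1 in 4 of 21), so the numbers were not taken as pairs. Calls were also lost for the left gene in LAP+/OC2- with RLE size factors (0.76, adjusted p 0.0505) and the right gene in the fetal mean without mitochondrial genes (-0.56). Calls were gained for the right gene with limma-voom (LAP+ 0.73, LAP+/OC2- 0.77) and with only the groups compared (0.73 and 0.69). They were gained for the left gene in the fetal mean with limma-voom (-0.51), and for colony against host with limma-voom (-0.49, -0.42 and -0.34) and DESeq2 (left -0.43). Without the animal block edgeR called 0 genes in colony against host, with 3483 at an unadjusted p under 0.05. With the block, DESeq2 called 682 genes and limma-voom 2078.

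Signs changed for LAP+/OC2- against LAP+, where no value was called. They changed with limma-voom (left 0.058, right 0.043) and, for the middle gene, with RLE (-0.010), no low-count filter (-0.014), a stricter filter (-0.00063), DESeq2 (-0.010), the replicate block (-0.10) and only those groups (-0.0091). The difference of differences over the fetal mean changed sign for the left gene with RLE (-0.027), no filter (-0.067), a stricter filter (-0.063), DESeq2 (-0.027) and no mitochondrial genes (-0.067).

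With 1 library or animal left out, the ranges for left, middle and right were as follows. LAP+ against adult gave 0.73 to 0.96, 0.67 to 0.91 and 0.61 to 0.86. LAP+/OC2- against adult gave 0.72 to 0.97, 0.66 to 0.94 and 0.58 to 0.85. LAP+/OC2- against LAP+ gave -0.14 to 0.15, -0.14 to 0.17 and -0.18 to 0.15. The fetal mean gave -0.57 to -0.37, -0.69 to -0.50 and -0.69 to -0.51. Colony against host gave -0.56 to -0.35, -0.48 to -0.28 and -0.42 to -0.25. The difference of differences over the fetal mean gave -0.17 to 0.23 for left and -0.35 to 0.036 for middle, and for the right gene that of LAP+ gave 0.99 to 1.36 and that of LAP+/OC2- 0.98 to 1.36.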
